A study of Macaca fascicularis with 12 samples.

Results

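Transcript levels of 4 secreted ADAMTS proteases and 5 proteoglycans were described in atherosclerotic arteries. The proteases were ADAMTS1, ADAMTS4, ADAMTS5 and ADAMTS9, and the proteoglycans were versican (VCAN), aggrecan (ACAN), biglycan (BGN), decorin (DCN) and lumican (LUM). A probe was included when its only gene symbol in the platform annotation was 1 of these 9. The rule found 11 probes, 3 for DCN and 1 for each other gene, among 53877 tested probes naming 18160 distinct symbols. The tissue was a biopsy of the iliac artery, the trunk that carries blood to the leg, from 12 untreated female cynomolgus monkeys (Macaca fascicularis), with 1 array per animal. The arteries fell into 3 groups by plaque area, large with 3 arteries of 0.61 to 1.003 mm2, medium with 5 of 0.30 to 0.542 mm2 and small with 4 of 0 to 0.113 mm2. In the small group 2 arteries had an area of 0. All 12 animals were older than 20 years, had been fed a high fat diet over 8 years and had been without ovaries for 4 years, so the series holds no artery on another diet or with intact ovaries.

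ADAMTS proteases are zinc enzymes that carry thrombospondin motifs and act outside the cell, where several of them cut the core proteins of the large chondroitin sulphate proteoglycans. In the arterial wall versican fills the space between smooth muscle cells and binds hyaluronan, while biglycan, decorin and lumican are small leucine-rich proteoglycans that sit on collagen fibrils. Proteoglycans of the intima bind lipoproteins and are known for their part in lipid retention in early plaque. Protease activity also depends on removal of the propeptide and on inhibitors, neither of which an array of transcripts measures.

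Values are linear intensities scaled by the authors, with each array's median close to 1, from 53832 to 53867 probes per array. Tests were made on log2 intensity with limma across all probes and adjusted by Benjamini-Hochberg, and a probe was called at an adjusted p below 0.05. Of the measured markers, 8 of 10 for contractile smooth muscle and 7 of 10 for endothelium had a mean log2 intensity above 0. CNN1 and ACTG2, and VWF, KDR and CLDN5, did not. MYH11, the smooth muscle myosin heavy chain, lay at 437 to 492 in large-plaque arteries, at 287 to 475 in medium and at 527 to 771 in small. PECAM1, a marker of endothelium, lay at 21.2 to 28.4, 19.8 to 26.8 and 21.0 to 30.3 in large, medium and small. Probes were designed on human sequence, and a mismatch to the monkey transcript can dim a probe, so each test between groups compared a probe with itself. Sums over probes, and the height of a probe against the array median, are descriptions that such a mismatch can affect. Small replicate 4 and medium replicate 5 carry animal numbers apart from the other 10, and results that rest on them are also given without them.

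ADAMTS9 was the 1 probe of the 11 that passed the test, and it was lower in medium-plaque than in small-plaque arteries. ADAMTS9 encodes a large, widely expressed protease of the group, which cuts versican and aggrecan. Its intensity was 16.3, 8.63 and 9.87 in the large-plaque arteries, 13.6, 14.5, 5.52, 8.59 and 7.08 in the medium-plaque arteries, and 27.5, 34.4, 48.0 and 17.0 in the small-plaque arteries, each group in order of plaque area. Every artery with a medium or large plaque was below every artery with a small one, while the medium and large arteries overlapped. The mean log2 intensity was 3.48 ± 0.48 in large (SD, n = 3), 3.20 ± 0.60 in medium (SD, n = 5) and 4.89 ± 0.63 in small (SD, n = 4).

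ADAMTS9 fell by 1.69 ± 0.36 log2 units (SE) in medium against small, to a fold of 0.311, with a limma adjusted p of 0.0263. The 95% confidence interval of the difference was -2.47 to -0.91. In large against small the difference was -1.41 ± 0.41, a fold of 0.376, with an interval of -2.30 to -0.53 and an adjusted p of 0.116, which did not pass. The tissue was bulk artery, in which fewer cells of a type and less RNA per cell cannot be told apart. The call in medium against small was lost when medium replicate 1, 4 or 5 or small replicate 2, 3 or 4 was left out, with differences of -1.72 to -1.46 and adjusted p of 0.0586 to 0.0653. Without small replicate 4 and medium replicate 5 together, the ADAMTS9 difference was -1.59 with an adjusted p of 0.109.

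**Figure D1:**
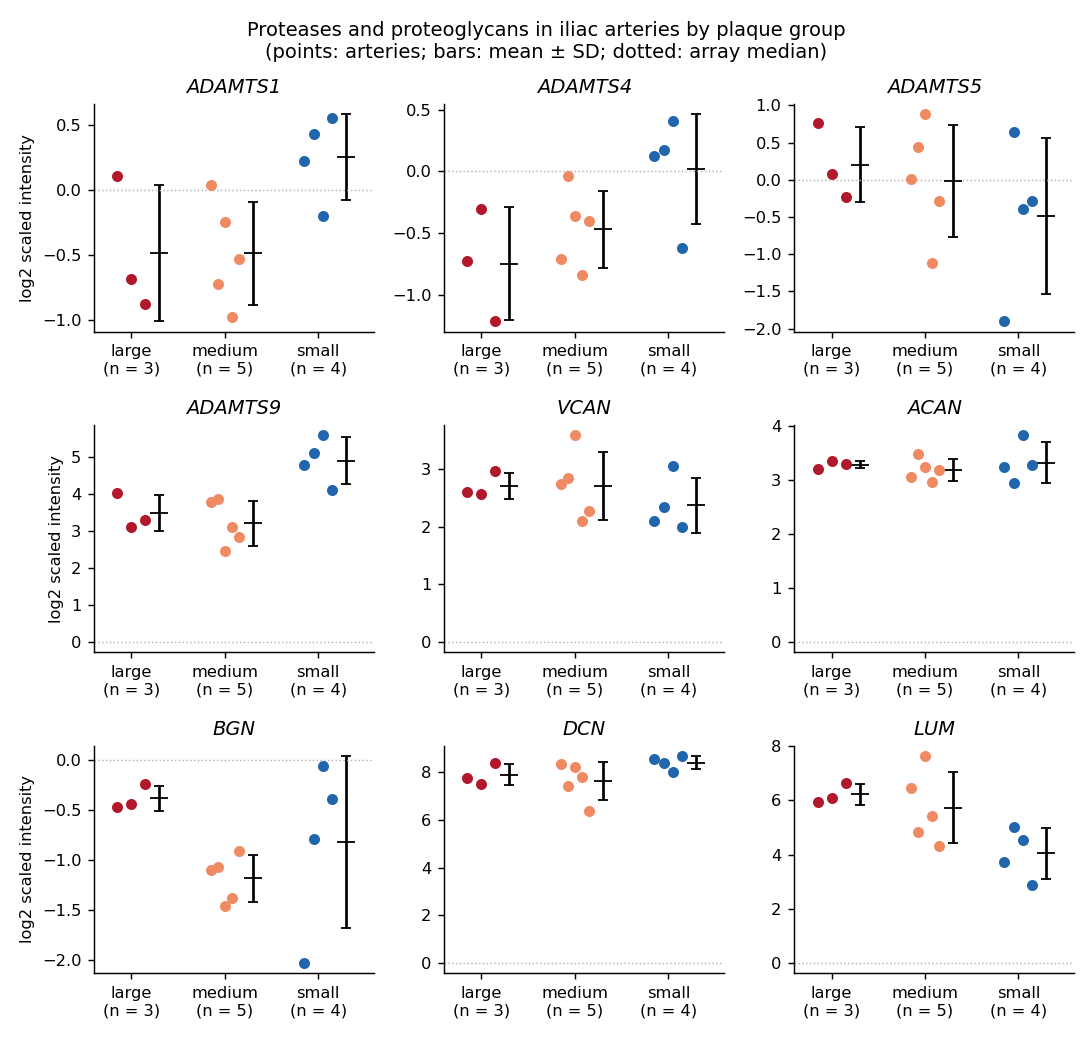
Log2 intensity of the 9 genes in each artery, by plaque group (large, n = 3; medium, n = 5; small, n = 4), with DCN shown by its brightest probe; each point is 1 animal, each bar the group mean ± SD and the dotted line the array median. ADAMTS9 lies lower in every large- and medium-plaque artery than in any small-plaque artery, and LUM lies higher in all 3 large-plaque arteries than in any small-plaque artery.

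The other 3 proteases gave signals near the array median of 1, so their probes carry less range than that of ADAMTS9. ADAMTS1, a protease of the vessel wall that cuts versican, had intensities of 1.08, 0.619 and 0.543 in large, 1.02, 0.604, 0.842, 0.508 and 0.692 in medium, and 1.17, 1.34, 0.868 and 1.47 in small. Of the 4 small-plaque arteries 3 were above all the others, but small replicate 3 lay within the range of the medium and large arteries. The difference for ADAMTS1 was -0.74 ± 0.26 in medium against small and -0.74 ± 0.30 in large against small, with limma adjusted p of 0.159 and 0.254.

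ADAMTS4, the enzyme also named aggrecanase-1, had intensities of 0.606, 0.811 and 0.431 in large, 0.613, 0.972, 0.777, 0.560 and 0.755 in medium, and 1.09, 1.13, 1.33 and 0.652 in small. Here small replicate 1 lay among the medium and large values, and the other 3 small-plaque arteries were above all of them. The difference for ADAMTS4 was -0.49 ± 0.26 in medium against small, with an adjusted p of 0.336, and -0.77 ± 0.29 in large against small, with an adjusted p of 0.224.

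ADAMTS5, the enzyme also named aggrecanase-2, had intensities of 1.69, 1.05 and 0.854 in large, 1.01, 1.35, 1.85, 0.461 and 0.817 in medium, and 0.268, 1.56, 0.761 and 0.820 in small. The 3 groups overlapped throughout. The 2 small-plaque arteries with no plaque held both the lowest value of the 12 and the highest of their group. The difference for ADAMTS5 was 0.47 ± 0.49 in medium against small, with an interval of -0.60 to 1.54, and 0.69 ± 0.56 in large against small, with an interval of -0.53 to 1.90.

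Among the proteoglycans, LUM differed most in size between groups but did not pass the test. Lumican binds collagen fibrils and sets their spacing, and carries keratan sulphate in some tissues. Its intensity was 61.1, 67.7 and 101 in large, 86.9, 28.9, 199.9, 42.4 and 20.2 in medium, and 13.3, 32.5, 23.4 and 7.45 in small. All 3 large-plaque arteries were above all 4 small-plaque arteries. The medium arteries spread over a 9.90-fold range and overlapped both other groups. The difference was 2.17 ± 0.70 log2 units in large against small, a fold of 4.51 with a limma adjusted p of 0.156. In medium against small the LUM difference was 1.69 ± 0.62, a fold of 3.22 with an adjusted p of 0.170.

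DCN had 1 bright probe, 274093, and 2 probes below the array median, and the gene is represented by the bright one. Decorin regulates collagen fibril growth and binds TGF-beta. The intensity of the bright probe was 218, 182 and 332 in large, 319, 169, 297, 223 and 82.4 in medium, and 371, 335, 258 and 403 in small. Of the small-plaque arteries 3 were above every medium or large one, and small replicate 3 lay inside their range. The difference for DCN was -0.78 ± 0.36 in medium against small, with an interval of -1.56 to 0.00 and an adjusted p of 0.274, and -0.51 ± 0.41 in large against small, with an adjusted p of 0.582. The dim probes 197088 and 334092 ranged from 0.168 to 0.562 and from 0.278 to 0.676 over the 12 arteries, and their adjusted p ran from 0.522 to 0.822 against small. LUM and DCN are neighbours on macaque chromosome 11 with 0 protein-coding genes between them. The differences of LUM and of the bright DCN probe from small-plaque arteries had opposite signs, though none was called. The dim DCN probe 334092 had the sign of LUM in medium against small, at 0.14 ± 0.21.

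VCAN, the large proteoglycan of the vessel wall and a substrate of these proteases, had intensities of 6.05, 5.88 and 7.82 in large, 6.66, 7.13, 11.99, 4.27 and 4.81 in medium, and 4.25, 5.06, 8.30 and 3.98 in small. The groups overlapped, and the highest value was that of medium replicate 1. The difference for VCAN was 0.34 ± 0.31 in medium against small and 0.34 ± 0.35 in large against small, with adjusted p of 0.607 and 0.682. The intervals for VCAN reached from -0.33 to 1.00 and from -0.42 to 1.09.

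ACAN, the chief large proteoglycan of cartilage, varied least of the 9 genes within the large group, with intensities of 9.24, 10.2 and 9.86 there. It had 8.28, 11.2, 9.44, 7.84 and 9.10 in medium and 9.40, 7.71, 14.3 and 9.73 in small. The groups overlapped, with small replicate 3 the highest of all. The difference for ACAN was -0.14 ± 0.19 in medium against small and -0.04 ± 0.21 in large against small, with intervals of -0.55 to 0.27 and -0.50 to 0.43. The second ACAN difference was 0.0077 with quantile normalization, the opposite sign. The summed intensity of 8 other cartilage genes was 8.13 to 12.2 in large, 6.13 to 13.4 in medium and 7.79 to 11.8 in small. COL2A1, the main collagen of cartilage, stayed below the array median, at 0.183 to 0.604, 0.333 to 0.728 and 0.027 to 0.739 in large, medium and small. SOX9, a transcription factor of cartilage and other tissues, lay above it, at 2.38 to 4.65, 1.67 to 5.18 and 1.53 to 4.75. Of the 8 genes 1 was called, COL9A1, which fell by 1.16 ± 0.23 log2 units in large against small (limma adjusted p = 0.0381) and differed by -0.34 ± 0.21 in medium against small (adjusted p = 0.411). COL9A1 too was below the array median, at 0.217 to 0.468, 0.536 to 0.685 and 0.663 to 0.802 in large, medium and small. Its call was not examined with animals left out.

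BGN, which binds apolipoprotein B in the intima, gave a signal below the array median on every array. Its intensity was 0.725, 0.737 and 0.847 in large, 0.468, 0.478, 0.363, 0.383 and 0.532 in medium, and 0.244, 0.579, 0.959 and 0.762 in small. Every large-plaque artery was above every medium-plaque artery, and the small-plaque arteries covered both ranges. The difference for BGN was 0.44 ± 0.37 in large against small and -0.37 ± 0.32 in medium against small, with limma adjusted p of 0.608 and 0.597.

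**Figure D2:**
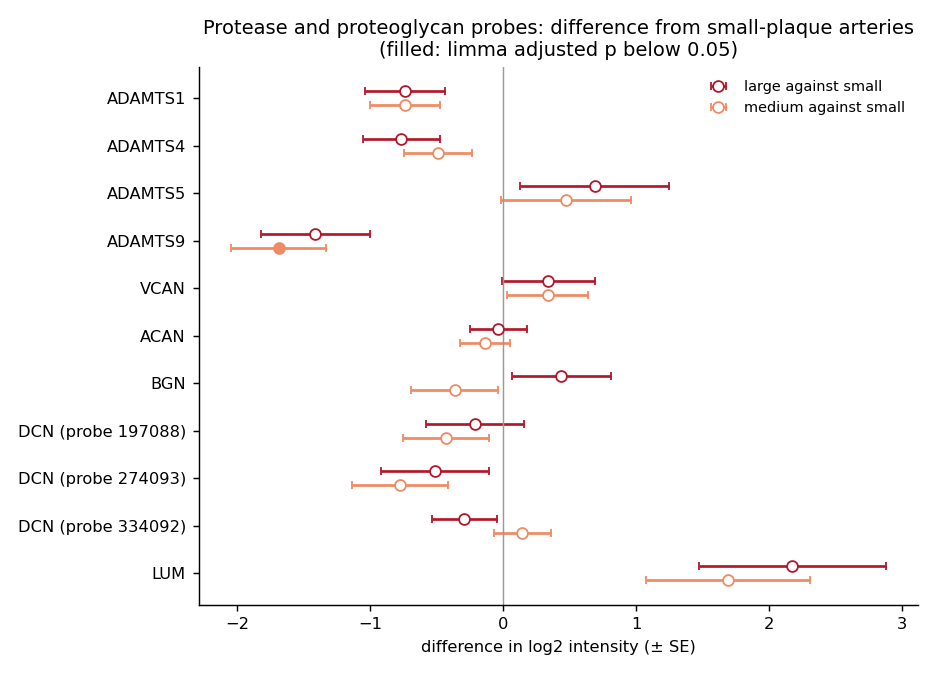
Difference in log2 intensity from small-plaque arteries for each of the 11 probes, with large against small in dark red and medium against small in orange; bars are the standard error of the limma fit and filled points have an adjusted p below 0.05. The 1 filled point is ADAMTS9 in medium against small, at -1.69.

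The calls were set against those over all probes. In medium against small 1 of the 11 probes was lower and 0 were higher at an adjusted p below 0.05, where 1.17% and 1.97% of all tested probes were. At an unadjusted p below 0.05 there were 3 of 11, namely ADAMTS9, ADAMTS1 and LUM, against 18.3% of all probes. In large against small 0 of 11 were called in either direction by limma, where 0.948% of all probes were higher and 0.197% lower. At an unadjusted p below 0.05 there were 4, ADAMTS9, ADAMTS1, ADAMTS4 and LUM, against 16.1% of all probes. Groups did not overlap for 1 probe that was lower (ADAMTS9) and 0 that were higher in medium against small, where 4.34% and 3.94% of all probes did so. In large against small they did not overlap for 1 lower (ADAMTS9) and 1 higher (LUM), where 8.52% and 5.99% of all probes did so.

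By role, 3 of the 4 proteases had a negative difference in both comparisons against small, and the exception was ADAMTS5. Their median difference was -0.62 in medium against small and -0.75 in large against small, and those of the 5 proteoglycans were -0.14 and 0.34. The median over all genes, with 1 probe each, was -0.03 and -0.05. Both comparisons share the 4 small-plaque arteries, so their values are not independent of each other.

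Medium- and large-plaque arteries were compared to see whether the 9 genes differed among arteries with an established plaque. In large against medium 0 of 11 probes passed limma's test in either direction, and 0% of all probes did. At an unadjusted p below 0.05 there was 1 of 11, BGN, against 5.04% of all probes. BGN was 0.80 ± 0.35 log2 units apart, a fold of 1.74 with an interval of 0.03 to 1.57, and its adjusted p was 0.962. BGN was also the 1 probe of the 11 whose groups did not overlap here, where 2.53% of all probes were higher and 2.93% lower without overlap. ADAMTS9 had a difference of 0.28 ± 0.39 with an interval of -0.57 to 1.12, and LUM one of 0.49 ± 0.67 with an interval of -0.97 to 1.95. VCAN and ADAMTS1 both had 0.00 with intervals of -0.72 to 0.73 and -0.62 to 0.63.

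Plaque area was also taken as a number across all 12 arteries. The slope on area was called for 0 of the 11 probes by limma, where 0.483% of all probes had a rising and 0.1% a falling slope. At an unadjusted p below 0.05 there were 4, against 15.9% of all probes. ADAMTS9 had a slope of -2.07 ± 0.57 log2 units per mm2 (adjusted p = 0.103), ADAMTS1 one of -1.13 ± 0.34 (adjusted p = 0.125) and ADAMTS4 one of -0.99 ± 0.32 (adjusted p = 0.159). LUM had a slope of 2.40 ± 0.91 with an adjusted p of 0.215. With the square root of area in place of area, the ADAMTS9 slope was -2.25 log2 units per square root of mm2 and its adjusted p was 0.0282. In that setting 1586 of all tested probes were called, where 314 were called with area itself.

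The small-plaque arteries stood apart from the rest for ADAMTS9, so the relation to area was also computed within the 8 medium- and large-plaque arteries. BGN had a Pearson r of 0.809 (exact permutation p = 0.0136, 0.150 after adjustment over the 11 probes). Its Spearman rho was 0.810 (exact permutation p = 0.0218, adjusted 0.240). Without large replicates 1 and 3, the arteries farthest from the median area, the r of BGN was weaker, at 0.471, over a narrower range of areas. Leaving out any 1 artery gave an r of 0.698 to 0.855. For the other 10 probes r ran from -0.447 to 0.306, with adjusted exact permutation p of 0.978. ADAMTS9 had an r of -0.141 and LUM one of 0.159 within these 8 arteries.

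**Figure D3:**
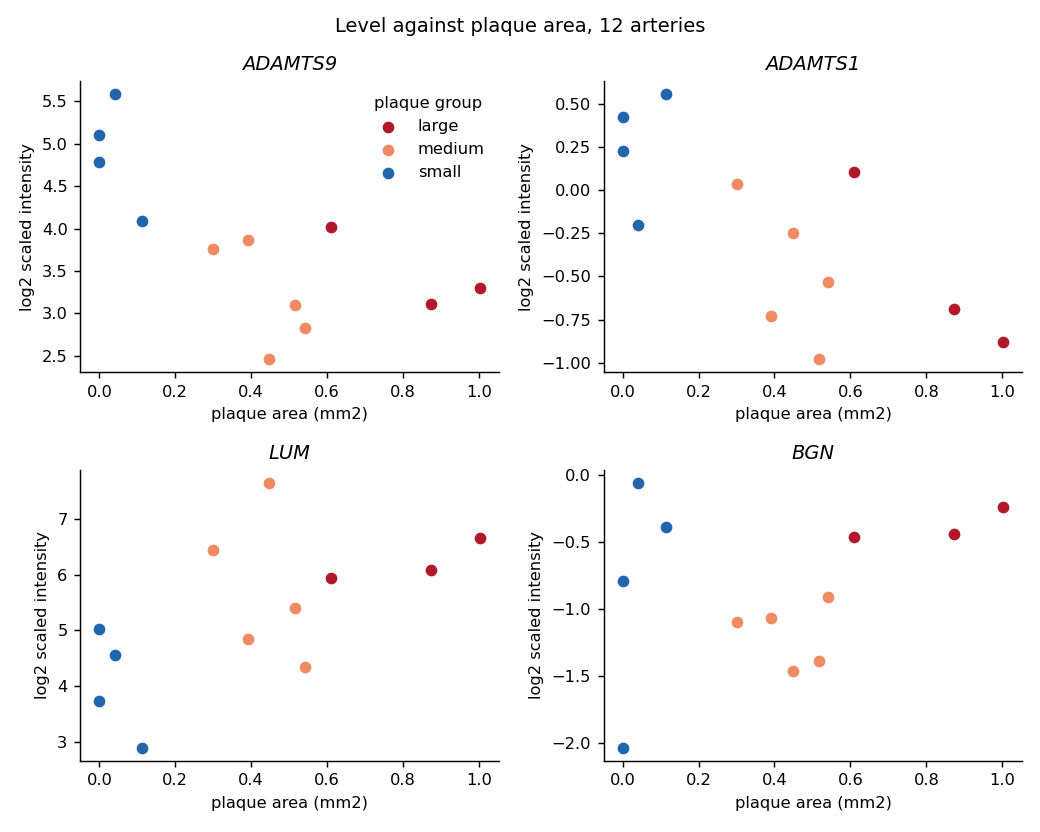
Log2 intensity against plaque area in mm2 for ADAMTS9, ADAMTS1, LUM and BGN, 1 point per artery and the colours marking the large, medium and small groups. The points of ADAMTS9 lie highest at the small areas, and among the 8 arteries of 0.30 mm2 and above its r with area was -0.141, where that of BGN was 0.809.

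The genes were then set against each other within the 8 arteries with a medium or large plaque, to see which varied together from animal to animal. Of 36 pairs, 3 had an exact permutation p below 0.05 and 0 passed after adjustment over the pairs. DCN and LUM gave an r of 0.840 (exact permutation p = 0.00836, adjusted 0.301), a rho of 0.833 (exact permutation p = 0.0154) and an r of 0.759 without the 2 arteries farthest from the median of DCN. Medium replicate 4, with the lowest DCN at 82.4, also had the lowest LUM of these 8 at 20.2. In the 4 small-plaque arteries DCN was at 258 or above while LUM was at 32.5 or below. Over all 12 arteries the r of DCN with LUM was 0.014, so the relation was seen only within the 8.

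VCAN and LUM gave an r of 0.766 (exact permutation p = 0.0272, adjusted 0.490), with medium replicate 1 the highest for both. Without the 2 arteries farthest from the median of VCAN the r was 0.607. ADAMTS5 and VCAN gave an r of 0.725 (exact permutation p = 0.0427, adjusted 0.513), which came to 0.134 without the 2 arteries farthest from the median of ADAMTS5, so it rested on them. Over the 20 pairs of a protease with a proteoglycan, r ran from -0.520 to 0.725 with a median of 0.149, and 13 were positive.

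**Figure D4:**
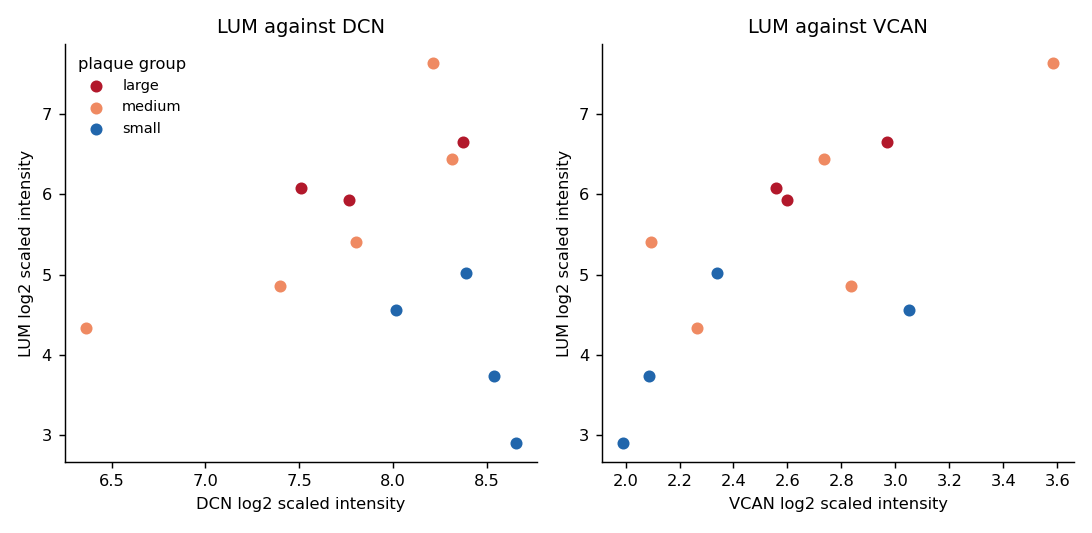
Log2 intensity of LUM against DCN (probe 274093) and VCAN, 1 point per artery, with the colours marking the large, medium and small groups. Within the 8 medium and large arteries r was 0.840 with DCN and 0.766 with VCAN, and in the DCN panel the small-plaque arteries sit apart at high DCN and low LUM.

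The named genes with the most similar pattern over the 12 arteries were picked by Pearson r among 11221 or 11222 genes, each by its brightest probe where that had a mean log2 intensity above 0, as a description. For ADAMTS9 they were TNRC6C, MAGEA8 and ZNF475, with r of 0.984, 0.982 and 0.967. For LUM they were VAMP7, APEH and MAP2K1, with r of 0.986, 0.980 and 0.977. For DCN they were ENTREP1 at 0.932, IGF1 at 0.892 and MLLT3 at 0.888, and for VCAN they were P3H1 at 0.912, DAB2 at 0.902 and SPATA19 at 0.887. ADAMTS5 had the lowest best match, GPR21 at 0.838. ADAMTS1, ADAMTS4, ADAMTS5 and BGN had a mean log2 intensity below 0, so they could not be picked as matches. None of the rest of the 9 genes was among the 3 most similar of another.

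The wider pathway was read from lists of genes by role, each gene by its brightest probe. Of 18 other ADAMTS and ADAMTS-like genes measured, 1 was called lower in medium against small and 0 in large against small, and 17 and 18 did not pass. Their median differences were -0.04 and -0.19. The gene called was ADAMTSL3, a secreted relative that lacks the protease domain. Its intensity was 28.8, 14.3 and 16.8 in large, 20.7, 11.05, 9.70, 7.32 and 4.21 in medium, and 49.9, 44.8, 24.1 and 35.9 in small. All 5 medium-plaque arteries were below all 4 small-plaque arteries, and large replicate 2 lay above the lowest small one. ADAMTSL3 fell by 2.01 ± 0.40 log2 units in medium against small, with a limma adjusted p of 0.0209, and differed by -0.97 ± 0.46 in large against small, with an adjusted p of 0.327. Its call was lost without medium replicate 5 or small replicate 2 or 4, with adjusted p of 0.0503 to 0.0649, and its dimmer second probe differed by -1.10 ± 0.43 with an adjusted p of 0.197.

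Of 13 other small leucine-rich proteoglycans 0 were called in any comparison by limma, with medians of -0.17 in medium against small and 0.09 in large against small. Those of smallest p in medium against small were FMOD, fibromodulin, a collagen-binding relative of lumican, with 0.53 ± 0.24 in medium against small (adjusted p = 0.269), and TSKU, tsukushi, with -0.56 ± 0.26 (adjusted p = 0.272). Of 24 other proteoglycan core proteins 1 was called higher in each comparison against small, and the medians were -0.06 in medium and -0.15 in large. It was SRGN, serglycin, the proteoglycan of leukocyte granules. Its intensity was 106, 121 and 134 in large, 103, 56.7, 208, 73.9 and 81.3 in medium, and 28.5, 37.8, 8.02 and 31.3 in small, with every medium and large artery above every small one.

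SRGN rose by 2.39 ± 0.52 log2 units in large against small (limma adjusted p = 0.0493) and by 2.04 ± 0.45 in medium against small (adjusted p = 0.0325). A dimmer SRGN probe gave -0.37 ± 0.52 and -0.62 ± 0.46, the opposite sign, with adjusted p of 0.780 and 0.517. The medium call was lost without medium replicate 1, 2, 4 or 5 or small replicate 2, with adjusted p of 0.0547 to 0.0649, and when only the groups compared were fitted (adjusted p = 0.0652). The large call was lost without any 1 of the large replicates, without medium replicate 2, 3, 4 or 5 and without small replicate 2 or 4, with adjusted p of 0.0507 to 0.196. It was lost too with a floor at the 1st percentile (0.0657) and with only the groups compared (0.0874).

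Of 22 genes for hyaluronan and its link proteins 0 were called by limma in any comparison, and the medians were 0.07 in medium and 0.05 in large against small. ITIH3, a heavy chain that is coupled to hyaluronan, had 60.9, 41.7 and 55.8 in large, 55.7, 54.3, 41.1, 36.1 and 19.3 in medium, and 70.3, 102, 69.4 and 114 in small. Every medium and large artery was below every small one. The ITIH3 difference was -1.16 ± 0.30 in medium against small and -0.74 ± 0.34 in large against small, with adjusted p of 0.0605 and 0.321. TNFAIP6, which transfers such heavy chains onto hyaluronan, had a difference of 1.15 ± 0.34 in medium and 1.33 ± 0.38 in large against small, with adjusted p of 0.0918 and 0.117. In medium against small ITIH3 passed in 3 of 22 alternatives, with adjusted p down to 0.0286, and TNFAIP6 in 2, with adjusted p down to 0.0479.

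Of 24 genes for chondroitin and dermatan sulphate synthesis 1 was called lower in medium against small and 0 in large against small, with medians of 0.05 and -0.05. It was CSGALNACT1, an enzyme that starts chondroitin sulphate chains. CSGALNACT1 had 6.33, 3.16 and 6.15 in large, 5.32, 4.41, 3.48, 3.72 and 3.17 in medium, and 10.3, 7.17, 8.99 and 9.44 in small, with every medium and large artery below every small one. It fell by 1.17 ± 0.24 log2 units in medium against small, with a limma adjusted p of 0.0214, and differed by -0.84 ± 0.27 in large against small, with an adjusted p of 0.154. Its second probe, 331038, also fell in medium against small, by 1.20 ± 0.27 (adjusted p = 0.0327), and the third, 256031, gave -0.07 ± 0.16 (adjusted p = 0.864). The call was lost without medium replicate 1, 4 or 5 or small replicate 2, with adjusted p of 0.0509 to 0.0664.

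A list of 17 genes covered inhibitors, activators and clearance of these proteases, and also held cytokines, matrix proteins and other proteases. In it 1 gene was called lower in medium against small and 1 higher in large against small, with medians of 0.08 and 0.18. TIMP3, the tissue inhibitor that blocks ADAMTS4 and ADAMTS5, had 5.87, 4.80 and 6.21 in large, 5.81, 4.67, 3.90, 4.40 and 5.02 in medium, and 8.05, 6.03, 8.53 and 8.38 in small. All 5 medium-plaque arteries were below all 4 small-plaque ones. TIMP3 fell by 0.70 ± 0.17 log2 units in medium against small, with a limma adjusted p of 0.0482, and its second probe gave -0.05 ± 0.16 with an adjusted p of 0.897. In large against small TIMP3 differed by -0.46 ± 0.20 with an adjusted p of 0.278. The call was lost without any 1 animal other than medium replicate 2 and small replicate 4, with adjusted p of 0.0570 to 0.116. It was lost too with a floor at the 1st percentile (0.0545), array weights (0.0574) and only the groups compared (0.0839).

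TGFB1, a cytokine that raises proteoglycan synthesis in smooth muscle cells, had 7.53, 9.02 and 5.51 in large, 2.68, 4.06, 5.68, 1.37 and 1.48 in medium, and 1.86, 1.56, 2.16 and 1.14 in small. The large-plaque arteries were above all of the small ones, and the highest medium value, of replicate 1, lay just above the lowest large one. TGFB1 rose by 2.14 ± 0.45 log2 units in large against small (limma adjusted p = 0.0462) and differed by 0.68 ± 0.40 in medium against small (adjusted p = 0.395). In large against medium the TGFB1 difference was 1.46 ± 0.43 with an adjusted p of 0.8293. The call was lost without any 1 of the large or small replicates and without medium replicate 2 or 3, with adjusted p of 0.0535 to 0.176. It was lost too with quantile normalization (0.0507) and a floor at the 1st percentile (0.0617). Without small replicate 4 and medium replicate 5 together, the calls of the 5 list genes were all lost, with adjusted p of 0.0985 for ADAMTSL3, 0.0580 and 0.0702 for SRGN in medium and large, 0.0617 for CSGALNACT1, 0.0741 for TIMP3 and 0.0756 for TGFB1.

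**Figure D5:**
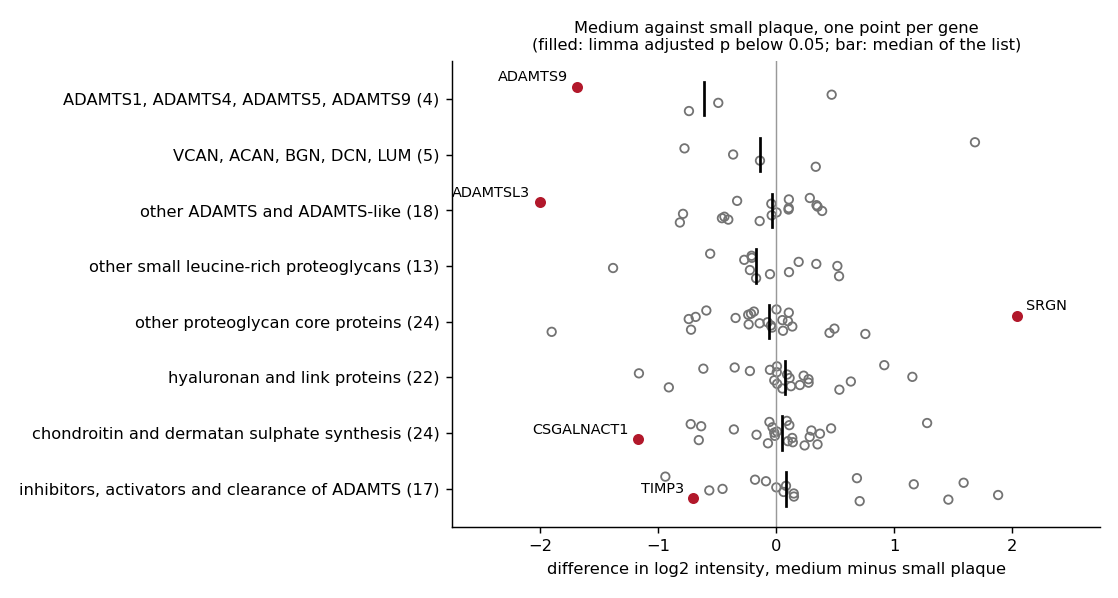
Difference in log2 intensity in medium against small plaque for each measured gene of the 9 described here and of 6 lists by role, 1 point per gene, with the number of genes in brackets and a bar at the median of the list. Filled points have a limma adjusted p below 0.05 and are named; list medians lie between -0.62 and 0.08.

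Markers of several cell types also differed between the groups. Of 14 macrophage markers 8 were called higher in large and 9 in medium against small. Their summed intensity was 323 to 489 in large, 304 to 609 in medium and 74.2 to 139 in small. In each comparison 12 had positive and 2 negative differences. In large against small the negative ones were CD68, at -0.66 ± 0.51, and C1QB, at -0.11 ± 0.47, neither of them called. CD68 lay at 28.5 to 34.7 in large, 13.5 to 89.1 in medium and 44.1 to 60.4 in small. All 10 contractile smooth muscle markers had negative differences by their brightest probe, with 1 called lower in large and 2 in medium. Their sums were 1016 to 1656, 780 to 1589 and 1843 to 2670 in large, medium and small. The marker called in large was MYLK, at -1.48 ± 0.31. Its dimmer probe, 183072, had the opposite sign and was not called, at 0.73 ± 0.61 in large and 0.28 ± 0.54 in medium against small. Dimmer probes of SYNM and SMTN were positive in medium and negative in large against small. Those of ACTA2 and CALD1 were negative in both. Endothelial sums were 95.8 to 129, 76.1 to 125 and 164 to 235, with 1 of 10 markers called lower in medium against small. That marker, ESAM, carried most of the sum, at 57.4 to 93.0, 36.6 to 83.9 and 121 to 182. PECAM1 differed by -0.06 ± 0.19 in large against small and -0.10 ± 0.16 in medium against small. A dimmer PECAM1 probe, 140019, rose by 1.25 ± 0.27 (limma adjusted p = 0.0486) and 1.21 ± 0.24 (adjusted p = 0.0184). Fibroblast sums were 440 to 596, 373 to 633 and 671 to 984, with 0 of 12 called by limma in either comparison. S100A4, which other cells also express, carried much of that sum, at 261 to 347, 187 to 361 and 338 to 614. Of the 12 fibroblast markers 5 had positive and 7 negative differences in both comparisons, among them COL1A2 with 0.69 ± 0.42 and FBLN5 with -1.54 ± 0.55 in large against small. T cell sums overlapped, at 20.5 to 34.1, 27.8 to 43.6 and 13.1 to 32.9, with 0 of 8 called. No marker list had a gene at the intensity floor on every array. The medium- and large-plaque arteries, with lower ADAMTS9 and higher SRGN than any small-plaque artery, differed from them in several sums at once. Their smooth muscle, endothelial and fibroblast sums were all lower and their macrophage sums higher than in any small-plaque artery. These cell types cannot be told apart here. The part of cell makeup in the differences of ADAMTS9, LUM, SRGN and the other genes named here was not tested.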

How the data were processed

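RNA from 12 arteries was hybridized to CodeLink human whole-genome arrays with 1 dye, per the labels' protocols. The deposited values are linear intensity per probe, which the authors had scaled to an array median near 1; some lie below 0. How images were read, background was removed and values were scaled is not given in the sources used here. Values below the 5th percentile of the positive ones (0.111, 5.45% of values) were set to it and log2 was taken; no value of the 11 probes lay there. Of 54359 probes 479 were empty, and 53877 with values in at least 2 animals per group were tested. Of these, 23267 had 1 gene symbol, 900 several and 29710 none.

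Limma version 3.58.1 in R version 4.3.3 fitted 3 group means over all 12 arrays, and a second fit the slope on area. P-values are two-sided and adjusted over all 53877 probes by Benjamini-Hochberg. Replicates are separate animals, and their number limits the precision. The fits were tested on simulated data. Macaque names and neighbours came from the T2T-MFA8v1.1 annotation, which holds all 9 genes. All of their probes are named; from the role lists, called genes, or otherwise the genes of smallest p, by the brightest probe. The 9 genes and the lists were chosen with earlier results of these data known, and the correlations between pairs of genes were added after the values were seen. Alternatives covered normalization, floor, dim and incomplete probes, variance model, array weights, arrays in the fit, area scale, replicate block and each animal left out.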

Additional observations from a re-analysis of the deposited data

How the results depend on the processing

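The count of called probes in medium against small was 1, and it was 0 with the replicate block, 0 without small replicate 4 and medium replicate 5 together, and between 0 and 1 leaving out each animal in turn. ADAMTS9 kept its sign in all 22 alternatives, from -1.95 to -1.46, and lost its call in 8 of them. The slope on area, with 0 called, gave 1 with the square root of area, the setting in which calls over all probes were 1586. In large against small and in large against medium the count was 0 throughout. Over all probes the calls numbered 773 to 2477 in medium against small (1693 as reported), 112 to 1396 in large against small (617), 0 to 4 in large against medium (0) and 0 to 1586 for the slope (314). The cause was not tested.

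Replicate numbers were shared between groups. Same-numbered arrays correlated in their deviations by -0.159 to 0.216, with a median of 0.082 and 4 of 10 pairs over 0.1. Arrays of different groups and different numbers correlated by -0.203 to 0.228, with a median of -0.023. For 6 of 12 arrays the best correlated array of another group had the same number. With the replicate block ADAMTS9 had -1.66 in medium against small (limma adjusted p = 0.0563), CSGALNACT1, TIMP3, SRGN in large against small and TGFB1 had adjusted p of 0.0533, 0.143, 0.0562 and 0.0802, all calls numbered 866, and in large against medium the sign turned for VCAN (-0.25), ADAMTS1 (-0.12) and ACAN (-0.026).

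Signs also turned for BGN in medium against small (0.024, array weights), ACAN in large against small (0.0077, quantile; 0.046, array weights), TSKU there (0.051, array weights) and VCAN in large against medium (-0.0046, quantile; -0.0016, pseudocount of 0.5). Without small replicate 4 and medium replicate 5, large against medium gave -0.12 for ADAMTS1, -0.15 for VCAN and -0.059 for ADAMTS5. The ACAN slope was 0.010 with quantile normalization, 0.068 with array weights and 0.21 within medium and large, where the slopes were also 0.025 for DCN probe 197088, 0.23 for DCN probe 274093, -0.072 for VCAN and -0.43 for ADAMTS5. DCN probe 197088 had an r with area of -0.024 with the pseudocount.

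Leaving out each animal turned the sign of ACAN (-0.26 to 0.032), DCN probe 334092 (-0.015 to 0.24) and ADAMTS5 (-0.0020 to 0.85) in medium against small. It did so for ACAN (-0.16 to 0.13), DCN probe 197088 (-0.48 to 0.017) and TSKU (-0.29 to 0.18) in large against small. In large against medium it did so for DCN probe 274093 (-0.048 to 0.45), ADAMTS1 (-0.30 to 0.20), VCAN (-0.15 to 0.22) and ADAMTS5 (-0.062 to 0.44), and for the slope with ACAN (-0.18 to 0.17) and ADAMTS5 (-0.12 to 0.96). The r with area ran from -0.709 to 0.0919 for ADAMTS4, -0.378 to 0.0284 for ADAMTS9, -0.292 to 0.233 for VCAN, -0.247 to 0.203 for DCN probe 197088, -0.308 to 0.319 for DCN probe 274093 and -0.0593 to 0.429 for LUM. Signals near or below the array median limit ADAMTS1, ADAMTS4, ADAMTS5, BGN and the dim DCN probes.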

Other observations

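In 3 genes of the role lists (leaving out the cell type markers) a probe other than the brightest passed limma's test while the brightest did not, and they were singled out after their values were seen. For CD44, the main hyaluronan receptor of leukocytes and smooth muscle cells, probe 14044 rose by 0.95 ± 0.19 log2 units in large against small (adjusted p = 0.0399) and by 0.87 ± 0.17 in medium against small (adjusted p = 0.0184), where the brightest probe gave 0.16 ± 0.24 and 0.27 ± 0.21. For CHST11, a sulphotransferase that acts on chondroitin, probe 141031 rose by 1.21 ± 0.26 in medium against small (adjusted p = 0.0266) and gave 1.35 ± 0.29 in large against small (adjusted p = 0.0506), where the brightest gave 0.01 ± 0.13 and -0.18 ± 0.15. Its other probes, 38001 and 186078, gave -0.31 ± 0.21 and -0.38 ± 0.29 in medium against small. In large against small they gave 0.90 ± 0.24 and 0.18 ± 0.33, and neither was called. For SLC26A2, a sulphate transporter, probe 453089 fell by 0.96 ± 0.21 in medium against small (adjusted p = 0.0301) and gave -0.92 ± 0.24 in large against small (adjusted p = 0.0857), where the brightest gave 0.09 ± 0.17 and 0.67 ± 0.19. A further SLC26A2 probe, 32011, had the opposite sign to 453089 and was not called, at 0.71 ± 0.64 in medium and 1.83 ± 0.73 in large against small. Among the cell type markers the same held for PECAM1, for DPT (probe 95026, -1.35 ± 0.28 in medium against small, adjusted p = 0.0253) and for CSF1R in large against small (probe 92010, 2.58 ± 0.47, adjusted p = 0.0249). Which transcript forms these probes read is not given in the sources used here, and their calls were not examined with animals left out.

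For the 11 probes, of 22 sets of medium or small values 0 had a highest or lowest value past Dixon's criterion. The 3 large-plaque arteries are too few for it.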
